A study of Brassica napus with 2 samples.

Results

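*IAA3* and *IAA4* are *Aux/IAA* genes of *Arabidopsis*, and their orthologs in *Brassica napus* were followed in seedlings given auxin. The orthologs were taken from the study's table of orthologous genes as those assigned to AT1G04240 (*IAA3*) or AT5G43700 (*IAA4*). This gave 6 of the 119 *Aux/IAA* genes of *B. napus*, of which 4 are *IAA3* orthologs and 2 are *IAA4* orthologs. Values for 5 of the 6 genes were used, and *BnaC08.IAA.5*, an *IAA3* ortholog, was not analysed here. RNA-seq was carried out on 30-day-old seedlings kept for 3 h with 1 μM of the auxin IAA (indole-3-acetic acid), and on control seedlings of the same age kept for 3 h at 0 μM IAA. The control is given as water in the sample labels and as liquid MS medium without IAA in the treatment protocol. Both sample titles begin with WT, no transgene or mutation was named for either group, and the cultivar was not given in the sources used here. Each group was 1 library made from 10 pooled seedlings, so that the difference between the groups has no replicate check and no test of the treatment is possible.

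Aux/IAA proteins are short-lived nuclear repressors. They bind the auxin response factors (ARFs) at the promoters of auxin-responsive genes and recruit TOPLESS co-repressors, and auxin brings them to the TIR1/AFB F-box receptors, which mark them for degradation. Many *Aux/IAA* genes are themselves targets of the ARFs, so that auxin raises the transcription of its own repressors in a negative feedback loop. In *Arabidopsis*, *IAA3* is also known as *SHY2*, and it acts in the root meristem, where cytokinin and auxin act on it in opposite directions. *IAA4* is a close relative of *IAA3* that was isolated early as an auxin-inducible gene. *B. napus* is an allotetraploid with An and Cn subgenomes, so that most genes come as pairs of An and Cn copies called homeologs.

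The *IAA3* orthologs were between 3.02-fold and 7.69-fold higher in the IAA library than in the control library, and the *IAA4* orthologs were 1.55-fold and 1.73-fold higher. Levels are given as FPKM, a measure of fragments corrected for transcript length and sequencing depth, so that levels of different genes can be compared. The deposited table gives FPKM for 63193 genes, and it lists no gene at 0 FPKM in both libraries. From the lowest values of the *Aux/IAA* genes, which come in steps of what 1 fragment is worth, the depth was estimated as 18300000 fragments in the IAA library and 23700000 fragments in the control library. Intervals below are 95% intervals of the estimated fragments and cover counting error only, not differences between pools of seedlings. In whole seedlings, more RNA per cell and more cells of a type that expresses a gene cannot be told apart.

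*BnaA10.IAA.2* (gene BnaA10g02490D, chromosome A10), an *IAA3* ortholog, was at 53.1 FPKM in the IAA library and at 6.90 FPKM in the control library. These values correspond to 727 estimated fragments with IAA and 122 in the control. The gene was 7.69-fold higher with IAA (95% exact binomial interval from 6.36-fold to 9.43-fold), the highest fold among the orthologs of *IAA3* and *IAA4* with values. In log2 fold change, with 0.1 FPKM added to both values, it ranked 10 among the 93 *Aux/IAA* genes with values. Some genes ranked above it had 0 or 1 estimated fragments in the control, so that their rank depends on the value added.

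*BnaC05.IAA.2* (BnaC05g02360D, chromosome C05), the homeolog of *BnaA10.IAA.2*, was the most weakly expressed of the 5 genes in both libraries. It was at 10.5 FPKM in the IAA library and at 2.49 FPKM in the control library, from 117 and 36 estimated fragments. It was 4.21-fold higher with IAA, and with so few fragments in the control the interval was wide, from 2.88-fold to 6.30-fold. Its log2 fold change ranked 18 of 93, with the same limit on the genes ranked above it.

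*BnaA09.IAA.7* (BnaA09g50600D, chromosome A09) was at 68.6 FPKM in the IAA library and at 22.7 FPKM in the control library, from 558 and 239 estimated fragments. It was 3.02-fold higher with IAA (interval from 2.59-fold to 3.53-fold), the smallest fold of the *IAA3* orthologs with values. The difference in level was nevertheless large, at 45.9 FPKM, against 46.2 FPKM for *BnaA10.IAA.2* and 7.98 FPKM for *BnaC05.IAA.2*. A fold change therefore placed *BnaA10.IAA.2* far above *BnaA09.IAA.7*, whereas the number of FPKM gained was close to the same.

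The *IAA4* orthologs were at nearly the same level as each other. *BnaA09.IAA.3* (BnaA09g16590D, chromosome A09) was at 36.1 FPKM in the IAA library and at 20.8 FPKM in the control library, from 517 and 386 estimated fragments. It was 1.73-fold higher with IAA (interval from 1.52-fold to 1.98-fold). *BnaCX.IAA.6* (BnaCnng63870D, on unplaced sequence of the Cn subgenome) was at 36.3 FPKM in the IAA library and at 23.3 FPKM in the control library, from 555 and 463 estimated fragments. It was 1.55-fold higher with IAA (interval from 1.37-fold to 1.76-fold). Both intervals lay above no difference and below 2-fold, so that counting error alone does not bring either gene to a 2-fold difference between these libraries.

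**Figure D1:**
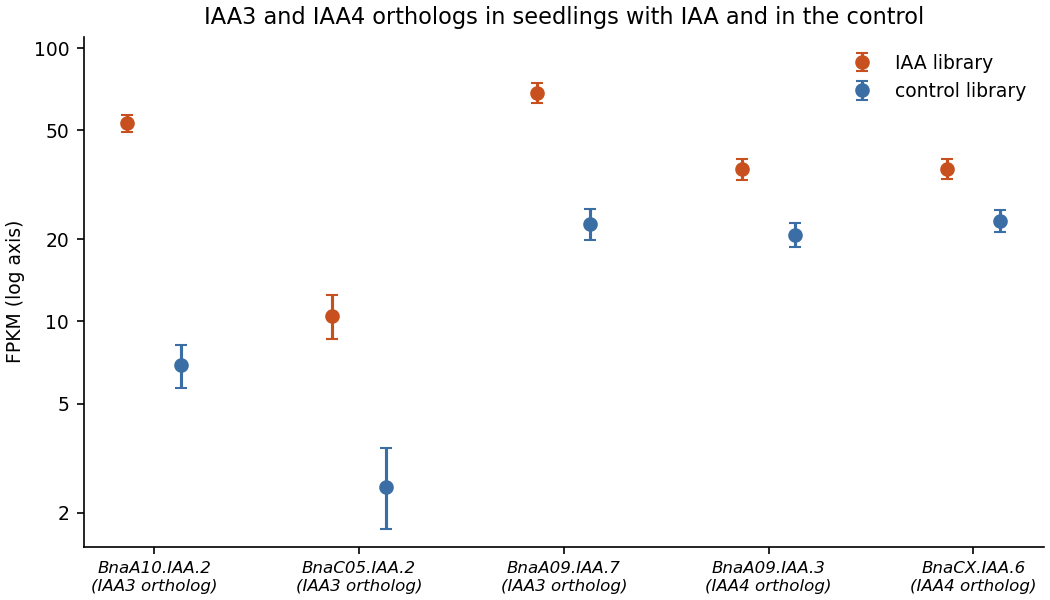
FPKM on a log axis of the 5 *IAA3* and *IAA4* orthologs with values, in the IAA library (left of each pair) and the control library; points are single libraries and bars are exact Poisson intervals at 95% of the estimated fragments. The *IAA3* ortholog *BnaA10.IAA.2* shows the widest gap, 53.1 FPKM with IAA against 6.90 FPKM in the control, and the *IAA4* orthologs the narrowest.

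Of the 5 genes, 3 passed a fold of 2 upwards with IAA and 0 passed it downwards, on the scale of log2 fold changes with 0.1 FPKM added to both values. Among all 63193 genes, 4.22% passed this fold upwards and 8.68% downwards. Among the 43979 genes that reached 1 FPKM in either library, which include these 5, the shares were 2.51% and 4.86%. At a fold of 1.5, all 5 genes passed upwards, beside 8.92% of all genes upwards and 19.3% downwards. At a fold of 3, 3 of the 5 genes passed upwards, beside 1.81% of all genes upwards and 3.34% downwards, and at a fold of 4 it was 2 of the 5, beside 1.15% and 1.84%. The median log2 fold change of the 5 genes was 1.59, beside -0.13 over all genes and 0.54 over the 88 other *Aux/IAA* genes with values. The log2 fold change was 2.93 for *BnaA10.IAA.2*, 2.03 for *BnaC05.IAA.2*, 1.59 for *BnaA09.IAA.7*, 0.79 for *BnaA09.IAA.3* and 0.63 for *BnaCX.IAA.6*. Even the lowest of these was at or above the log2 fold changes of 91.9% of all genes, and that of *BnaA10.IAA.2* was at or above those of 99.6%.

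The order of the genes by level differed between the libraries. With IAA, the highest was *BnaA09.IAA.7* (exact Poisson interval from 63.1 to 74.6 FPKM), followed by *BnaA10.IAA.2* (49.3 to 57.1 FPKM), *BnaCX.IAA.6* (33.3 to 39.4 FPKM), *BnaA09.IAA.3* (33.0 to 39.3 FPKM) and *BnaC05.IAA.2* (8.64 to 12.5 FPKM). Only *BnaCX.IAA.6* and *BnaA09.IAA.3* had overlapping intervals there. In the control, *BnaCX.IAA.6* (21.3 to 25.6 FPKM), *BnaA09.IAA.7* (19.9 to 25.8 FPKM) and *BnaA09.IAA.3* (18.8 to 23.0 FPKM) could not be ordered, since their intervals overlapped. *BnaA10.IAA.2* (5.72 to 8.22 FPKM) and *BnaC05.IAA.2* (1.74 to 3.44 FPKM) lay below them. *BnaA10.IAA.2*, which was at 0.332 of the level of *BnaA09.IAA.3* in the control, was thus at 1.47 times its level with IAA.

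Summed over the 3 *IAA3* orthologs with values, the level was 132 FPKM with IAA and 32.1 FPKM in the control, a ratio of 4.11. For the *IAA4* orthologs the sum was 72.3 FPKM with IAA and 44.1 FPKM in the control, a ratio of 1.64. The *IAA3* orthologs made up 64.6% of the sum of the 5 genes in the IAA library and 42.2% in the control library. Within the *IAA3* orthologs, *BnaA10.IAA.2* held 40.2% of the sum with IAA and 21.5% in the control, *BnaA09.IAA.7* held 51.9% and 70.8%, and *BnaC05.IAA.2* held 7.92% and 7.74%. The sums leave out *BnaC08.IAA.5*, so that the shares are those of the copies with values. Among all 93 *Aux/IAA* genes, the *IAA3* orthologs accounted for 3.92% of the summed FPKM with IAA and 1.86% in the control, and the *IAA4* orthologs for 2.15% and 2.55%.

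**Figure D2:**
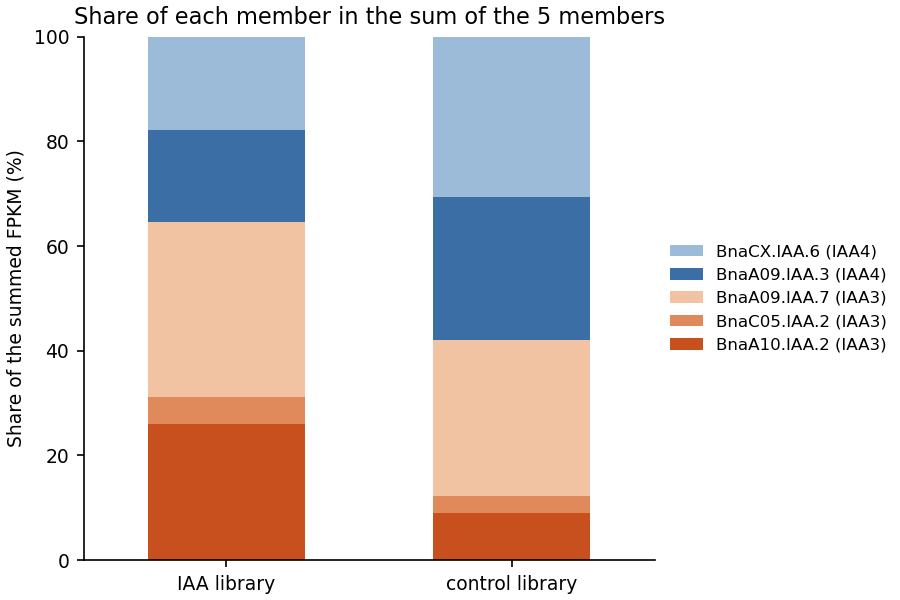
Share in percent of each gene in the summed FPKM of the 5 *IAA3* and *IAA4* orthologs with values, in the IAA library (left bar) and the control library (right bar). The *IAA3* orthologs (orange shades) take 64.6% with IAA and 42.2% in the control, and the *IAA4* orthologs (blue shades) take the rest.

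The copies were then compared with each other, gene by gene, within these libraries. Each of the 6 pairs of an *IAA3* ortholog and an *IAA4* ortholog had a higher log2 fold change in the *IAA3* ortholog, and in all 6 the counting interval of the difference lay above 0. The smallest difference was 0.80 between *BnaA09.IAA.7* and *BnaA09.IAA.3* (95% interval from 0.51 to 1.09), and the largest was 2.29 between *BnaA10.IAA.2* and *BnaCX.IAA.6* (interval from 1.98 to 2.64). These intervals, and those of the differences below, rest on a normal approximation to the log ratios of the estimated fragments without the added 0.1 FPKM, and they say nothing of variation between plants. In all, 13 pairs of genes were compared, and 11 of the intervals did not include 0. That of *BnaC05.IAA.2* and *BnaC05.IAA.3* left it out only narrowly, with a lower end of 0.01. The median log2 fold change of the *IAA3* orthologs exceeded that of the *IAA4* orthologs by 1.32.

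The pair of *IAA3* homeologs with values differed in level and in fold, whereas for the *IAA4* homeologs neither difference was detectable. *BnaA10.IAA.2* was at 5.07 times the level of *BnaC05.IAA.2* with IAA (interval from 4.17 to 6.16) and at 2.77 times in the control (interval from 1.91 to 4.02). Its log2 fold change was higher by 0.89 (interval from 0.26 to 1.48). The An copy was thus ahead of the Cn copy in both. For *BnaA09.IAA.3* and *BnaCX.IAA.6*, the ratio of levels was 0.994 with IAA (interval from 0.882 to 1.12) and 0.891 in the control (interval from 0.779 to 1.02). The difference of 0.16 between their log2 fold changes had an interval from -0.10 to 0.42, and was not detectable at this depth. Levels of homeologs are less certain than their intervals, because Cufflinks may share out fragments among near-identical sequences, and how far this affects these pairs was not tested. Among the *IAA3* orthologs that are not homeologs, the log2 fold change of *BnaA09.IAA.7* minus that of *BnaA10.IAA.2* was -1.34 (interval from -1.70 to -0.998). Between *BnaA09.IAA.7* and *BnaC05.IAA.2* a difference in log2 fold change was not detectable (-0.44, interval from -1.06 to 0.10).

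In *Arabidopsis*, *IAA3* and *IAA17* lie next to each other, and the neighbours of the *IAA3* orthologs in *B. napus*, by consecutive gene identifiers, are orthologs of *IAA17* (also known as *AXR3*). *BnaA10.IAA.3*, beside *BnaA10.IAA.2*, was at 28.2 FPKM with IAA and at 8.99 FPKM in the control. The log2 fold change of *BnaA10.IAA.2* was higher than that of its neighbour by 1.29 (interval from 0.93 to 1.66), and the *IAA3* ortholog was at 1.89 times the level of the *IAA17* ortholog with IAA and at 0.768 of it in the control. *BnaC05.IAA.3*, beside *BnaC05.IAA.2*, was at 17.7 FPKM with IAA and at 6.51 FPKM in the control. The *IAA3* ortholog was again ahead in log2 fold change, by 0.60, with an interval from 0.01 to 1.25 whose lower end lay next to 0. On chromosome A09 the order was the other way round, since *BnaA09.IAA.6* was at 90.7 FPKM with IAA and at 17.9 FPKM in the control, and the log2 fold change of *BnaA09.IAA.7* minus that of this *IAA17* ortholog was -0.74 (interval from -1.02 to -0.47). All 3 neighbouring pairs had both genes at least 2-fold higher with IAA.

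Outside the *IAA17* orthologs, most genes around the *IAA3* and *IAA4* orthologs that reached 1 FPKM in either library differed by less than 2-fold. The 10 gene numbers before and the 10 after each gene were looked up, as gene numbers run along the chromosomes, and 51 such neighbours of the 5 genes reached 1 FPKM in either library. Of these, 1 passed a fold of 2 upwards with IAA and 1 passed it downwards. Such counts do not set these neighbours apart from all genes at that level, of which 2.51% and 4.86% passed. Neighbours under 1 FPKM in both libraries were not counted, and some of them passed a fold of 2 in one direction or the other. The higher one was BnaA10g02390D, 10 gene numbers before *BnaA10.IAA.2*, at 1.87 FPKM with IAA and 0.773 FPKM in the control. The lower one was BnaA09g16570D, 2 gene numbers before *BnaA09.IAA.3*, at 0.938 FPKM with IAA and 2.22 FPKM in the control. The median log2 fold change of the neighbours with at least 1 FPKM was 0.01 around *BnaA10.IAA.2*, -0.07 around *BnaC05.IAA.2*, -0.13 around *BnaA09.IAA.7*, -0.11 around *BnaA09.IAA.3* and -0.08 around *BnaCX.IAA.6*. For *BnaCX.IAA.6* the gene numbers are those of unplaced sequence, so that these genes need not be its neighbours on a chromosome.

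**Figure D3:**
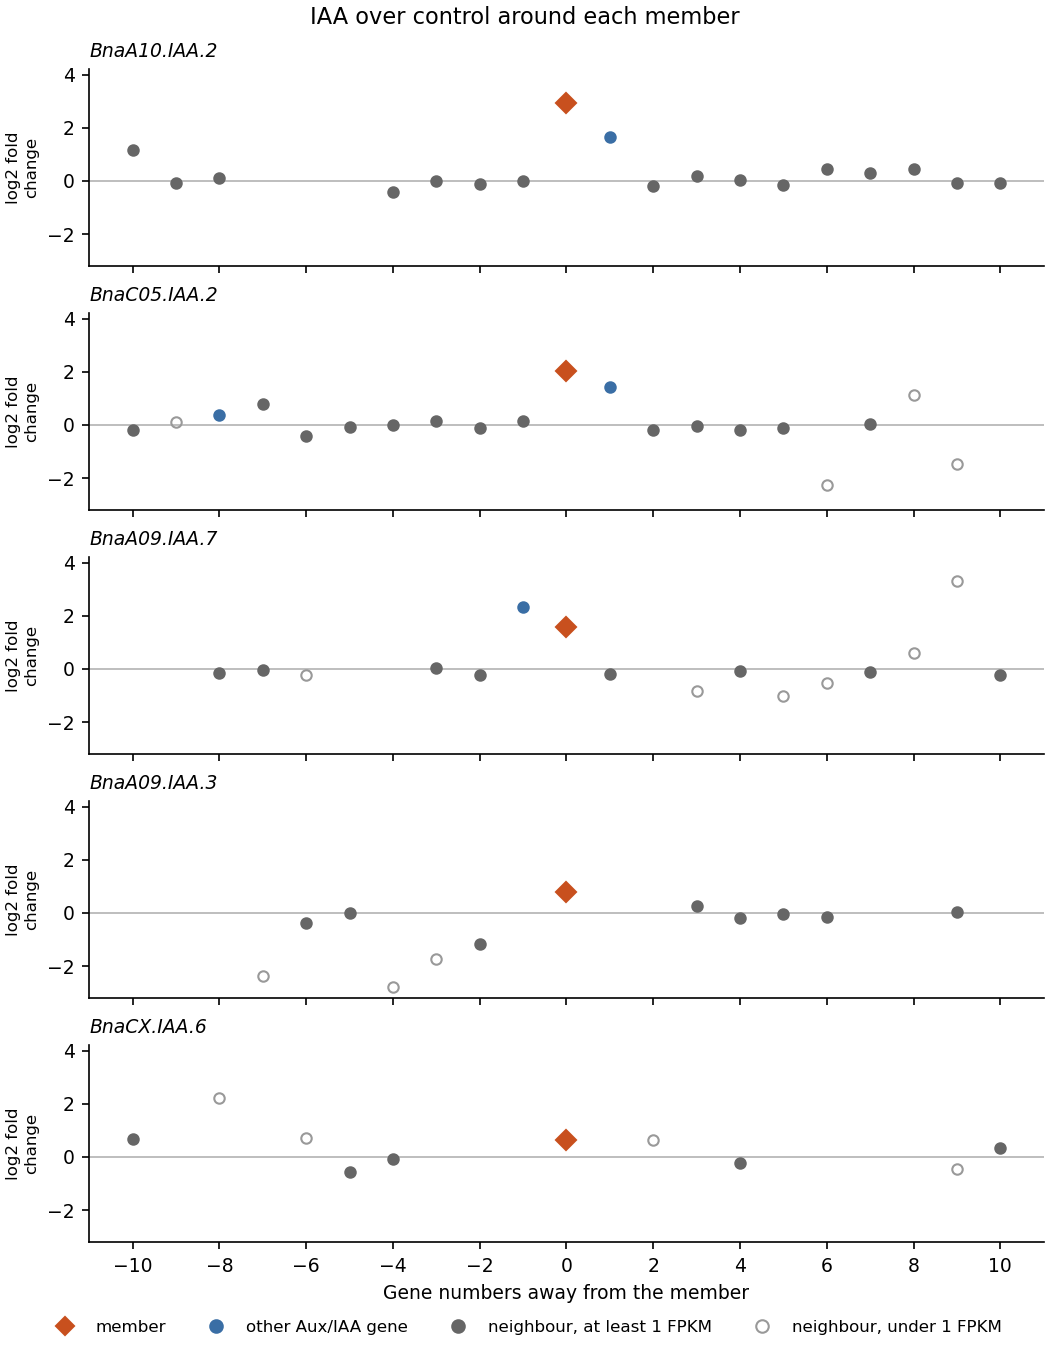
Log2 fold change (IAA over control) of each *IAA3* or *IAA4* ortholog with values (diamond) and of the genes with the 10 gene numbers before and after it; filled grey points reach 1 FPKM in either library, open points do not, and blue points are other *Aux/IAA* genes. Neighbouring *IAA17* orthologs stand high beside the *IAA3* orthologs, while most filled grey points lie near 0.

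For *BnaC08.IAA.5*, the homeolog of *BnaA09.IAA.7*, no level is given. Of the 20 gene numbers around it, 5 were listed in the table, against 15 of 20 around *BnaA09.IAA.7*. Around the other genes with values, from 9 (*BnaCX.IAA.6*) to 19 (*BnaC05.IAA.2*) of 20 were listed. One of the 5 was its *IAA17* neighbour *BnaC08.IAA.6*, listed at 0.0601 FPKM with IAA and at 0 FPKM in the control, and the highest of the others was at 3.08 FPKM with IAA and at 3.30 FPKM in the control.

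In the phylogeny of the study, the *IAA3* and *IAA4* orthologs belong to subgroup A1, together with orthologs of *IAA1*, *IAA2*, *IAA7*, *IAA14*, *IAA16* and *IAA17*. The *IAA3* orthologs had a median log2 fold change of 2.03, with values from 1.59 to 2.93. The 8 orthologs of *IAA1* and *IAA2*, auxin-inducible genes closely related to *IAA3* and *IAA4*, were all at least 2-fold higher with IAA, with a median of 1.43 and values from 1.25 to 1.68. The *IAA4* orthologs, with a median of 0.71, lay below all 8 of them. The 4 orthologs of *IAA7* (*AXR2*, which acts in root gravitropism and hypocotyl growth) had a median of 0.68, and 0 of them were at least 2-fold higher. Without 1 *IAA7* ortholog that stayed under 1 FPKM in both libraries, the median was 0.89. Of the 2 orthologs of *IAA14* (*SLR*, which acts in lateral root formation), 1 was at least 2-fold higher, and their median was 0.61. The 4 orthologs of *IAA16* also included 0 at least 2-fold higher and had a median of 0.10, and 4 of the 6 orthologs of *IAA17* were at least 2-fold higher, with a median of 1.32, or 1.43 over the 5 that reached 1 FPKM in either library. No difference between these sets was tested, as genes are not replicates.

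**Figure D4:**
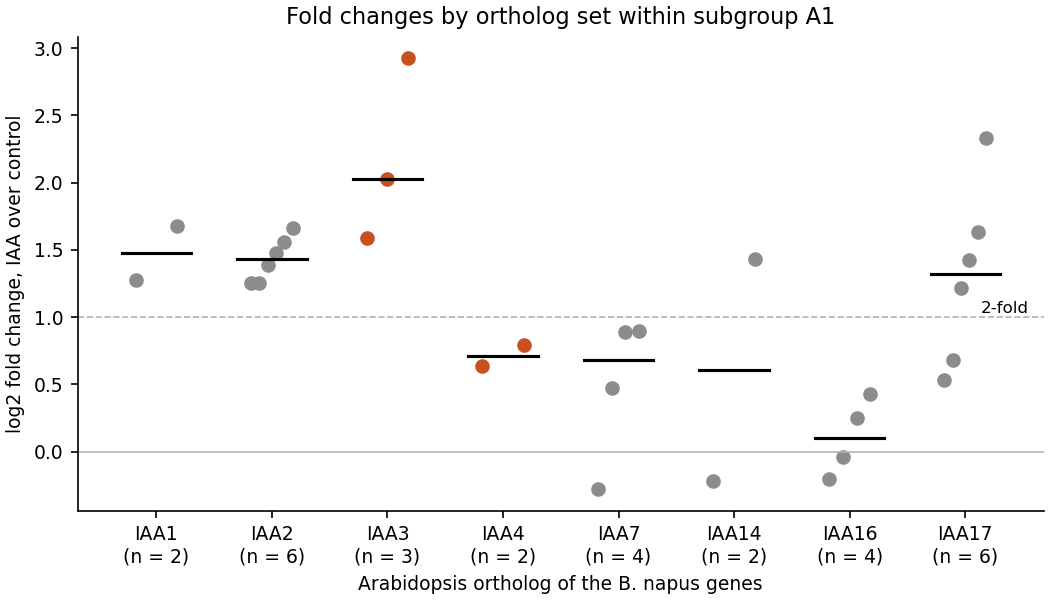
Log2 fold change (IAA over control) of each *B. napus* gene of subgroup A1 with values and an *Arabidopsis* ortholog, by ortholog; orange points are the *IAA3* and *IAA4* orthologs, grey points the others, black bars the medians, and the dashed line marks 2-fold. The *IAA3* orthologs lie between 1.59 and 2.93 and the *IAA4* orthologs at 0.63 and 0.79.

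Over the whole family, 36 of the 88 other *Aux/IAA* genes with values passed a fold of 2 upwards with IAA and 1 passed it downwards. Of the 93 genes, 87 fell into 28 sets by *Arabidopsis* ortholog, and 6 had no assigned ortholog. In 9 of these sets every gene with values was at least 2-fold higher, among them *IAA3*, and in 14 sets, among them *IAA4*, none was. The 9 sets became 8 when genes under 1 FPKM in both libraries were left out, since the *IAA32* ortholog rested on 1 estimated fragment with IAA and 0 in the control. The 14 sets include those of *IAA6*, *IAA15* and *IAA31*, of 1 gene each. These genes had 1 or 2 estimated fragments in the control and stayed under 1 FPKM in both libraries, so that a response could hardly be seen. A gene that reached 1 FPKM in either library was present in 24 sets. The median log2 fold change was above that of the *IAA3* orthologs in 5 sets, the orthologs of *IAA5*, *IAA19*, *IAA20*, *IAA29* and *IAA30*. This order depends on the value added for weakly expressed genes, as for the *IAA5* ortholog the control value was 0 FPKM, and the *IAA20* and *IAA30* orthologs had 1 to 22 estimated fragments there. With 1 FPKM added, 3 sets (*IAA5*, *IAA19* and *IAA29*) stayed above the *IAA3* orthologs, whose median was then 1.72, and the medians for *IAA20* and *IAA30* were 1.48 and 1.59. The orthologs of *IAA19* (*MSG2*, which acts in hypocotyl tropisms) had a median of 2.79 over 5 genes. The *IAA19* ortholog at this median had only 2 estimated fragments in the control, and with 1 FPKM added the median was 2.32. Those of *IAA29* had a median of 3.52 over 4 genes, or 3.21 with 1 FPKM added.

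The *Aux/IAA* gene nearest in both levels was found for each of the 5 genes, by the distance between log2 FPKM values with 0.1 FPKM added, over the 2 libraries and 76 other *Aux/IAA* genes that reached 1 FPKM in either library. For *BnaA10.IAA.2* it was *BnaC01.IAA.1*, an *IAA29* ortholog at 77.1 FPKM with IAA and at 10.2 FPKM in the control (distance 0.77). For *BnaC05.IAA.2* it was *BnaA04R.IAA.1*, an *IAA30* ortholog at 12.3 FPKM with IAA and at 1.92 FPKM in the control (distance 0.43). For *BnaA09.IAA.7* it was *BnaC01.IAA.4*, an *IAA2* ortholog at 79.4 FPKM with IAA and at 28.5 FPKM in the control (distance 0.39). Both *IAA4* orthologs had the same nearest gene, *BnaC05.IAA.6*, an *IAA7* ortholog at 29.1 FPKM with IAA and at 20.9 FPKM in the control, at a distance of 0.31 from *BnaA09.IAA.3* and of 0.35 from *BnaCX.IAA.6*. The *IAA3* copies thus had nearest genes from 3 different ortholog sets.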

How the data were processed

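RNA-seq was carried out on 1 library per group. Per the labels and the methods of the study, the authors aligned the reads with HISAT2 2.0.4 against the ‘Darmor-*bzh*’ reference and computed with Cufflinks 2.2.1 the deposited FPKM. Log2 fold changes were computed here after adding 0.1 FPKM to both values, which understates the change of weakly expressed genes, and genes were counted as higher or lower at a fold of 2. Folds and ratios of levels were taken from the FPKM values as deposited.

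Gene identifiers, orthologs and transcript lengths came from the study's gene tables. For each library, a depth and a mean fragment length were chosen that turned the *Aux/IAA* values of up to 10 fragments into whole fragments. They rested on 11 genes in the IAA library and 16 in the control library, with a mean fragment length of 195 bp in both. As a check, 6 of 6 further genes with 11 to 20 fragments in the IAA library and 7 of 7 in the control library lay within 0.1 of a whole fragment. The ratio of the depths, control over IAA, was 1.30, beside a most frequent ratio of 1.29 among 5083 genes with low values in both libraries. Intervals are exact binomial (Clopper-Pearson) for folds and exact Poisson for levels. The depth estimate was also run on simulated whole fragments, made with the same transcript lengths that the fit assumes. It therefore cannot show errors from wrong lengths or from fragments shared among genes.

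Read counts and the tissue values of the study's tables were not used here. The identifiers of the table carry no gene names, so that other genes of the auxin pathway and markers of seedling organs were not analysed here. No sequences of the genes were used here. The genes to be named were the 6 orthologs, their *IAA17* neighbours, the nearest *Aux/IAA* gene by level for each, and chromosomal neighbours that reached 1 FPKM in either library and a fold of 2; other genes were named by set only. The genes and lists were chosen with earlier results of these data known. Python 3.11.15, numpy 2.4.6, pandas 2.3.3, scipy 1.17.1 and matplotlib 3.10.9 were used.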

Additional observations from a re-analysis of the deposited data

How the results depend on the processing

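No paired analysis was possible because each group has 1 library. The log2 fold changes of the 5 genes were recomputed with pseudocounts of 1 and 0.01 FPKM, with minimums of 1 FPKM in either library or 0.5 FPKM in both, after centring and after rescaling to the upper quartile. They stayed within their counting intervals and kept their sign, with the widest range, from 1.72 to 2.12, for *BnaC05.IAA.2*. The minimums cannot change a gene's own value. The median lay between 1.55 and 1.68, and the differences between homeologs, between tandem neighbours and between the *IAA3* and *IAA4* medians kept their direction. Of the 5 genes, 3 were at least 2-fold higher under each of these settings, against 5 at a fold threshold of 1.5 (8.92% of all genes), 3 at 3 (1.81%) and 2 at 4 (1.15%). Of the 88 other *Aux/IAA* genes, 36 passed a fold of 2 upwards, against 42 at a threshold of 1.5, 23 at 3 and 17 at 4. The 36 became 29 with 1 FPKM added and 37 with 0.01 FPKM. It was 34 with the minimum of 1 FPKM in either library and 29 with that of 0.5 FPKM in both. Downwards, 1 passed a fold of 2, against 9 at a threshold of 1.5, 0 with 1 FPKM added and 4 with 0.01 FPKM. Over all genes, 2668 higher and 5487 lower genes became 666 and 873 with 1 FPKM, and 4311 and 9099 with 0.01 FPKM. With the coding sequence length alone, the lower ends of the intervals of the log2 fold changes ran from 0.37 to 2.55, against 0.45 to 2.67. Upper ends under the other settings are not given here. Depth limits *BnaC05.IAA.2* most, with 36 estimated fragments in the control. The settings for the ortholog sets (1 FPKM added, or genes under 1 FPKM left out) were chosen after seeing the data.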
